A study of Mus musculus with 36 samples.

Results

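The livers compared here were taken at ZT6 (zeitgeber time, in hours after lights on), the middle of the light phase, from 3 THRBKO mice and 3 THRBWT mice. THRBKO mice are homozygous (THRB-/-) for an altered *Thrb* allele that impairs DNA binding by both isoforms of thyroid hormone receptor beta, and THRBWT stands for heterozygous controls (THRB+/-), labelled WT, so that the mice of both groups carry the altered allele and none is fully wild type. All were young adult males on a C57Bl/6NCrl background, fed chow without restriction, and the allele is altered in every tissue. These 6 libraries are part of 36, with 3 mice per genotype at each of 6 times spaced 4 h apart, and were chosen by their titles. The genes described are the 14193 protein-coding genes, of 22046 in the table, with at least 100 counts summed over the 36 libraries. Each value of a single library is given in the order replicate 1, 2 and 3, which follows the letters a, b and c of the labels and means nothing in time.

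Thyroid hormone enters hepatocytes through transporters and is activated or broken down by deiodinases. Its active form, T3, binds the receptors THRA and THRB, which sit on DNA as partners of retinoid X receptors and switch between corepressors and coactivators when hormone is bound. THRB is the main receptor of hepatocytes, where it is known for its control of cholesterol clearance, lipogenesis, bile acid synthesis and the deiodinase DIO1.

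The 6 libraries held 29279652 to 37962314 counts, and their TMM factors (a scaling that makes libraries of different make-up comparable) lay between 0.997 and 1.02. CPM below means counts per 1000000 counts after this scaling, and a fold change means THRBKO against THRBWT. Summed markers of hepatocytes, among them albumin and transthyretin, were at 99800 to 108000 CPM in THRBWT and 103000 to 111000 CPM in THRBKO, as liver should show. Of 10 Kupffer cell and macrophage markers the summed level was 285 to 334 CPM in THRBWT and 264 to 454 CPM in THRBKO, and none of 4 adipose markers had enough counts to be tested. In whole liver, fewer cells of a type and less RNA per cell cannot be told apart. Over the 10979 protein-coding genes with a mean of at least 50 counts, the median standard error of the log2 fold change was 0.135, with quartiles of 0.104 and 0.194.

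*Thrb* itself (chromosome 14 of GRCm38, 17660261 to 18038090) was counted in all 6 libraries. Its level was 24.3, 25.2 and 38.5 CPM in THRBWT and 31.9, 27.6 and 35.9 CPM in THRBKO. The groups overlapped, with a log2 fold change of 0.12 (standard error 0.13). Counts over the whole gene do not separate reads of the altered exons, so they give no check of genotype.

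Across the protein-coding genes, few differences between the genotypes were called at ZT6. With 3 mice per group, this does not show that levels were alike. One gene, 1 of 14193 (0.00705%), passed a threshold of 0.05 for the p-value of edgeR's quasi-likelihood F test after Benjamini-Hochberg correction, called the adjusted p below. It was lower in THRBKO (0.00705% of genes in that direction), and 0 genes (0%) were called higher. Without adjustment, 256 genes (1.8%) had p under 0.05 with the higher level in THRBKO and 354 (2.49%) with the lower, and without THRBWT replicate 2 these counts were 201 and 168. DESeq2's Wald test called 2 genes, both lower, and 0 higher. Every THRBKO library lay above every THRBWT library for 589 genes (4.15%) and below for 561 (3.95%), and the median log2 fold change was 0.00. A fit with the letter of the mouse as a block called 5 genes, all lower (*Gm3839*, *Cib3*, *Dio1*, *F2rl1* and *Ugt2b5*), and libraries with the same letter deviated together at ZT6. At the neighbouring times, 2 genes were called at ZT2 and 1 at ZT10 in the same fit.

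The gene called was *Gm3839*, a predicted protein-coding gene on chromosome 14 (11280735 to 11356726), 6.3 Mb from *Thrb*. It was at 9.45, 9.89 and 11.3 CPM in THRBWT and at 0.598, 0.618 and 1.20 CPM in THRBKO, so the groups were far apart. This is a log2 fold change of -3.66 with a standard error of 0.51 and an adjusted p of 0.00058 (edgeR). Over the other 5 times, in 15 mice per genotype that did not enter this comparison, it was -2.89 (standard error 0.22). One of those 15 THRBKO libraries reached 8.72 CPM, within the range of the THRBWT mice, while the median of the 15 was 0.828 CPM. Of the 31-base words of its transcript, 67.8% also occur in transcripts of other genes in GENCODE M21, most of them in the pseudogene *Gm3272*, so reads can be split between copies and its level is uncertain. Leaving out replicate 1 or replicate 2 of both genotypes ended the call (adjusted p = 0.052 and 0.064, edgeR) at log2 fold changes of -3.54 and -3.52.

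Other genes around *Thrb* were examined because the altered allele was made in another strain, and DNA beside it travels with it. Of 148 tested genes within 20 Mb of *Thrb*, 13 had an unadjusted p under 0.05 with a lower level in THRBKO and 3 with a higher one. These are 8.78% and 2.03% of them, against 2.49% and 1.8% of all protein-coding genes. In 15 of the 148, all THRBKO libraries lay below all THRBWT libraries. That is 10.1% of them lying apart and lower, against 3.95% of all protein-coding genes, and 2.7% lying apart and higher, against 4.15%. Their median log2 fold change was -0.03, against 0.00 over all genes, and *Gm3839* is the 1 of them that was called. Without THRBWT replicate 2 the 13 genes were 8, where 1.18% of all protein-coding genes had such a p with the lower level. The 3 were again 3, where 201 of all 14193 genes had such a p with the higher level, and the median was 0.01. *Nid2*, the basement membrane protein nidogen 2, was at 4.66, 6.05 and 6.4 CPM in THRBWT and 2.69, 2.55 and 2.91 CPM in THRBKO (log2 fold change -1.07, standard error 0.32). It was chosen after its values were seen, and the same comparison over the other 5 times was called (log2 fold change -0.86, adjusted p = 0.000974, edgeR). *Nkiras1*, an inhibitor of NF-kappaB signalling, was at 31.7, 29.6 and 27.8 CPM in THRBWT and 39.8, 36.6 and 35.0 CPM in THRBKO. Its neighbour *Rpl15*, a protein of the large ribosomal subunit, was at 143, 131 and 128 CPM in THRBWT and 118, 121 and 119 CPM in THRBKO. The annotated spans of these neighbours overlap and the libraries carry no strand, so reads in the overlap cannot be assigned. The 612 bases of the pseudogene *Gm10020*, described below, match the *Rpl15* transcript at 610, and *Gm10020* was higher in THRBKO. In the sum of both genes the groups overlapped, at 155.4, 141.2 and 139.3 CPM in THRBWT and 139.9, 145.6 and 143.2 CPM in THRBKO. *Abhd6*, a monoacylglycerol lipase, was at 28.5, 32.4 and 23.7 CPM in THRBWT and 20.2, 21.8 and 18.1 CPM in THRBKO, and *4930452B06Rik* was at 2.88, 2.63 and 2.84 CPM against 5.62, 3.68 and 5.49 CPM. In *Nkiras1*, *Rpl15*, *Abhd6* and *4930452B06Rik*, each taken alone, the groups did not overlap. None of them was called at ZT6, and all 4 were called over the other 5 times in the same direction. All 4 were named for small p-values in these data. Of the 148 genes, 3 were called higher and 5 lower over the other times, against 0.796% of all protein-coding genes called there. *Plau*, *Anxa7* and *Oxsm* also lay apart and lower at ZT6. Their log2 fold changes over the other times were 0.32, -0.01 and -0.05, none of them called.

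**Figure D1:**
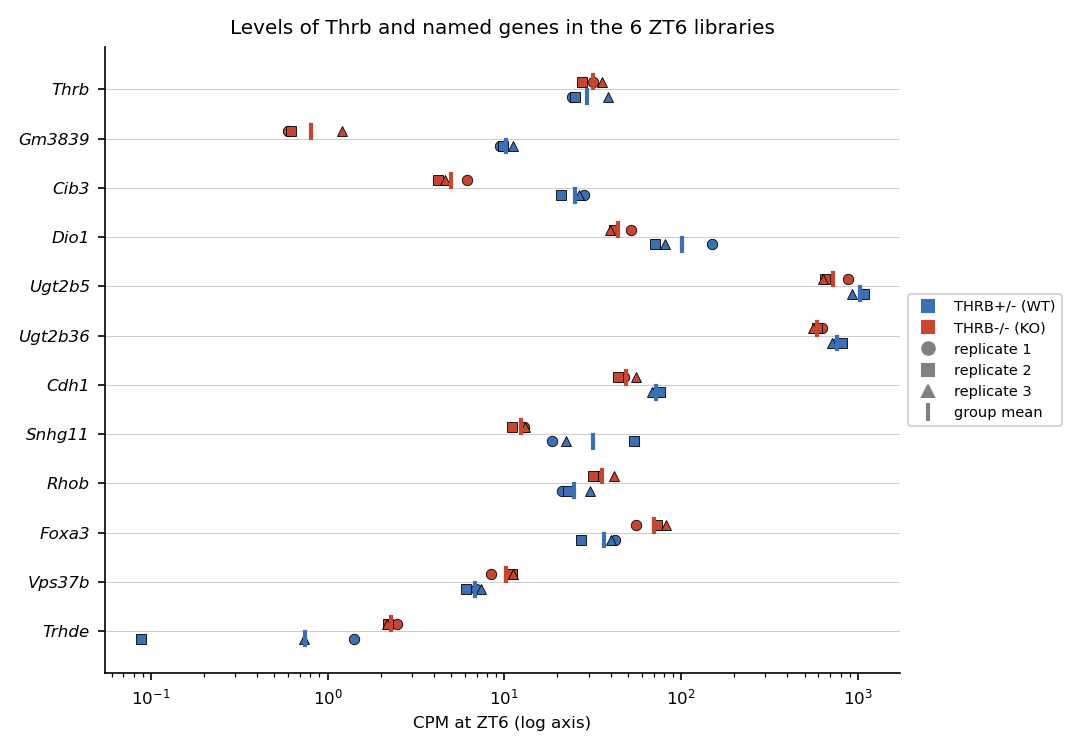
CPM on a log axis for *Thrb* and 11 other genes in the 6 ZT6 libraries, with blue for THRBWT and red for THRBKO, a symbol shape per replicate and a vertical bar at each group mean. *Gm3839* and *Cib3* stand clear of their controls, while the values of *Thrb* overlap.

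*Cib3*, which encodes a calcium and integrin binding protein, had the smallest p after *Gm3839* among genes with a mean of at least 50 counts. It was at 28.3, 20.8 and 26.7 CPM in THRBWT and 6.16, 4.25 and 4.64 CPM in THRBKO, a log2 fold change of -2.33 (standard error 0.50). Its adjusted p of 0.131 (edgeR, all 36 libraries) missed the threshold. It was called with the letter as a block (adjusted p = 0.00915, edgeR) and with the 6 ZT6 libraries alone (adjusted p = 0.00234, edgeR). DESeq2's Wald test also called it (adjusted p = 0.0233). In edgeR it was not called with robust estimation (adjusted p = 0.381), protein-coding genes alone (0.274), filterByExpr (0.148) or DESeq2's size factors (0.132). Nor was it called when libraries were left out, where the lowest adjusted p was 0.221 (edgeR). The THRBWT value at ZT6 exceeded those at other times, where the 15 THRBWT libraries had a median of 8.73 and a maximum of 12.3 CPM. The log2 fold change at ZT6 was lower than the mean of the other 5 times by 1.46 (standard error 0.53), a difference that was not called.

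The comparison of the ZT6 difference with that at the other 5 times called 0 genes (0%) in edgeR, where 582 had an unadjusted p below 0.05, and 0 in DESeq2, where 611 did. Over the other 5 times together, with 15 mice per genotype, 113 of the 14193 genes were called (0.796%). Of the 12 genes named for lower levels at ZT6, the gene called and the 11 of smallest p, 7 had the same sign over the other times and 4 of these were called there. Of the 12 genes of smallest p with higher levels, 8 had the same sign and 3 were called there.

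**Figure D2:**
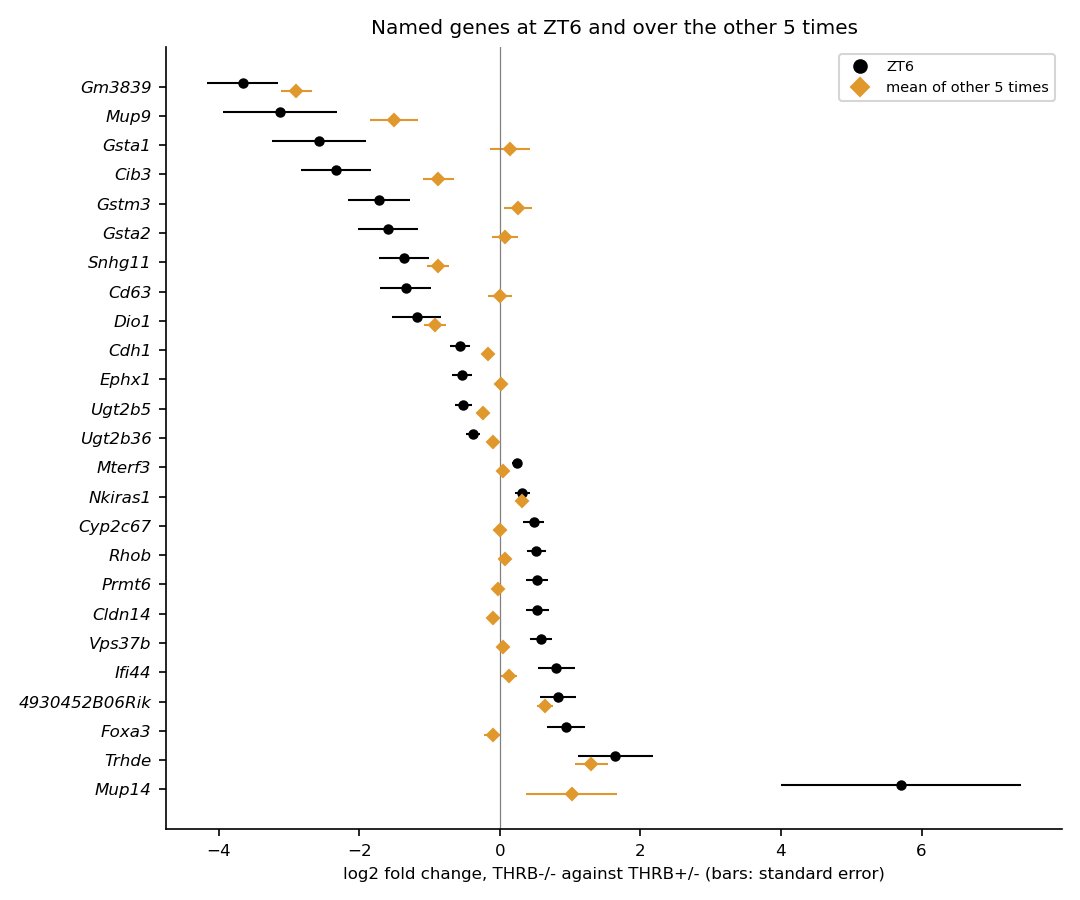
Log2 fold change of THRBKO against THRBWT with its standard error for *Dio1* and the 12 lowest-p genes in each direction, at ZT6 (black circles) and as the mean of the other 5 times (orange diamonds). *Gm3839*, *Dio1* and *Trhde* lie on the same side at both, whereas *Gsta1*, *Gstm3* and *Cd63* lie near 0 at the other times.

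Among genes of thyroid hormone action, *Dio1*, the deiodinase that is the classical hepatic readout of T3, was at 150.1, 71.0 and 81.0 CPM in THRBWT and 51.8, 41.5 and 39.6 CPM in THRBKO. Every THRBKO library lay below every THRBWT library, with THRBWT replicate 1 well above the others. The log2 fold change was -1.18 (standard error 0.35), with an adjusted p of 0.81 without the block and 0.00201 with it (edgeR). With the block in the 6 ZT6 libraries alone the adjusted p was 0.145 and *Dio1* was not called. Without THRBWT replicate 1 the log2 fold change was -0.78. Over the other times it was -0.92 (standard error 0.15, adjusted p = 0.00127). *Thra*, the other receptor gene, was at 32.1, 25.7 and 25.9 CPM in THRBWT and 23.3, 21.0 and 19.0 CPM in THRBKO, a log2 fold change of -0.40 (standard error 0.15) that was not called. *Crym*, a cytosolic binder of T3, was at 3.70, 3.95 and 3.77 CPM in THRBWT and 3.11, 2.82 and 3.20 CPM in THRBKO. In both genes the groups did not overlap at ZT6, while the log2 fold change over the other times was 0.01 for *Thra* and 0.15 for *Crym*. Of the 18 genes listed for the thyroid hormone axis, 0 were called, these 3 had an unadjusted p under 0.05, and the median log2 fold change was 0.01.

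Among the classical targets of thyroid hormone in liver, only *Dio1* (lower) and *Cyp7a1* (higher, described below) had an unadjusted p under 0.05 (edgeR). Of 24 genes, 0 were called, 14 had a positive and 10 a negative log2 fold change, and the median was 0.02. *Thrsp* (Spot14), a lipogenic protein, was at 147, 218 and 257 CPM in THRBWT and 235, 84.0 and 176 CPM in THRBKO. *Me1*, malic enzyme, was at 227, 353 and 320 CPM in THRBWT and 336, 320 and 261 CPM in THRBKO. *Klf9*, a transcription factor, was at 65.7, 68.3 and 92.3 CPM in THRBWT and 68.4, 76.0 and 84.4 CPM in THRBKO. The groups overlapped in all 3, with log2 fold changes of -0.33 (standard error 0.56), 0.03 (0.29) and 0.02 (0.25). *Hr*, a corepressor, was at 1.21 CPM or less in each library and also overlapped.

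*Cyp7a1*, the rate-limiting enzyme of bile acid synthesis, was at 23.8, 21.4 and 67.4 CPM in THRBWT and 72.1, 116 and 64.9 CPM in THRBKO. The values overlapped because THRBWT replicate 3 exceeded THRBKO replicate 3. The log2 fold change was 1.17 (standard error 0.45) and was not called. Of 19 bile acid enzymes, 0 were called and the median log2 fold change was 0.12. Of 21 cholesterol synthesis genes, 18 had a positive log2 fold change, with a median of 0.16, 0 calls and 0 with an unadjusted p under 0.05. Without THRBWT replicate 2 that median was 0.03.

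The first 250 bases before the start of *Dio1*, *Ugt2b5* and *Ugt2b36* (RefSeq, GRCm38.p6) are shown because THRBKO was below THRBWT for all 3 genes and because thyroid hormone receptors are known to bind copies of AGGTCA. Capitals mark AGGTCA, searched on both strands. The windows are chr4:107307169-107307418, chr5:87140341-87140590 and chr5:87092556-87092805, all on the minus strand, written 5′ to 3′ in the direction of the gene.
Dio1: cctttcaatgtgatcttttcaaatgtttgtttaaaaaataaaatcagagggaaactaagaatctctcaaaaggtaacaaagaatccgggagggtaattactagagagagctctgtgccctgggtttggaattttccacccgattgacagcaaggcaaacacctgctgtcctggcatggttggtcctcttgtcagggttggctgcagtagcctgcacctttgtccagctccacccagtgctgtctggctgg
Ugt2b5: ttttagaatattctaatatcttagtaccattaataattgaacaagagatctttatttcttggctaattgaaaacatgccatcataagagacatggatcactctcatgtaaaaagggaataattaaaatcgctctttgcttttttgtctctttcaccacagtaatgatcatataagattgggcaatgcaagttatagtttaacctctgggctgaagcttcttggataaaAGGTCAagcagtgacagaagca
Ugt2b36: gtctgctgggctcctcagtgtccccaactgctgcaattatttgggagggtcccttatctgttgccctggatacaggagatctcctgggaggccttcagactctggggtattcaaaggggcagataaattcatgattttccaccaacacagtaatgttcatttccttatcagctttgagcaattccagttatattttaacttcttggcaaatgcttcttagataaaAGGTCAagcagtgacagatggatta
AGGTCA occurs once in each *Ugt2b* window, 22 bases before the start of *Ugt2b5* and 25 before that of *Ugt2b36*, and not in the *Dio1* window. It occurs in 14% of all 32851 windows of this length, and 2 copies in the same direction with 4 bases between in 0.0152% of them and in none of these 3. The windows of *Ugt2b5* and *Ugt2b36* are 60.2% identical when aligned from end to end, so their shared letters are not independent. Of the 12 genes of the lower group, 10 have a window and 2 hold AGGTCA. Those 2 are *Ugt2b5* and *Ugt2b36*, so the windows of that group shown here are the ones with the motif.

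*Ugt2b5* and *Ugt2b36* encode UDP-glucuronosyltransferases, which attach glucuronic acid to hormones and drugs, and lie side by side on chromosome 5. *Ugt2b5* was at 1078, 1089 and 934 CPM in THRBWT and 879, 651 and 638 CPM in THRBKO. *Ugt2b36* was at 768, 811 and 712 CPM in THRBWT and 624, 586 and 555 CPM in THRBKO. The groups did not overlap in either gene, with log2 fold changes of -0.52 (standard error 0.12, adjusted p = 0.407) and -0.38 (standard error 0.098, adjusted p = 0.577, edgeR). With the block, *Ugt2b5* was called (adjusted p = 0.0482), and it was also called without THRBKO replicate 1 (adjusted p = 0.0482). Of its 31-base words 56.4% occur in other genes, so the 7 tested *Ugt2b* genes were also summed, a family chosen after the values were seen. The sum was 3117, 3357 and 3069 CPM in THRBWT and 2692, 2345 and 2417 CPM in THRBKO, again without overlap.

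Several further genes of the lower group are enzymes of glutathione conjugation and detoxification, and in these 1 control library stood apart. *Gstm3*, a glutathione transferase, was at 143, 663 and 99.9 CPM in THRBWT and 75.6, 87.0 and 113 CPM in THRBKO. *Gsta1* was at 4.97, 26.4 and 4.48 CPM in THRBWT and 0.987, 2.42 and 2.58 CPM in THRBKO, and *Gsta2* was at 45.0, 235 and 72.7 CPM against 31.1, 46.5 and 40.0 CPM. THRBWT replicate 2 held the highest level of all 36 libraries for each of them. *Ephx1*, microsomal epoxide hydrolase, was at 728, 981 and 734 CPM in THRBWT and 570, 583 and 535 CPM in THRBKO. *Cyp2a5*, a xenobiotic-inducible cytochrome P450, was at 502, 1263 and 668 CPM against 417, 335 and 393 CPM. *Cd63*, a tetraspanin of late endosomes, was at 4.79, 21.1 and 4.53 CPM against 3.86, 3.71 and 4.46 CPM. The 31-base words of *Gsta1* and *Gsta2* occur in other genes to 92.2% and 75.6%, so reads can be split within this family.

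All 6 of these differences were smaller without that library, to a degree that varied by gene. With all 6 libraries the log2 fold changes were -2.58 for *Gsta1*, -1.72 for *Gstm3*, -1.59 for *Gsta2*, -1.34 for *Cd63*, -1.09 for *Cyp2a5* and -0.53 for *Ephx1*. Without THRBWT replicate 2 they were -1.24, -0.40, -0.59, -0.22, -0.62 and -0.38. None of the 6 was called in either case. Of the 31 conjugation and antioxidant enzymes, 27 had a negative log2 fold change, 0 were called, 10 had an unadjusted p under 0.05 with the lower level in THRBKO, and 9 lay apart in that direction (29%, against 3.95% of all protein-coding genes). Among all protein-coding genes 2.49% had such a p with the lower level. Without THRBWT replicate 2, the count of 10 was 2, against 1.18% of all protein-coding genes, and the median log2 fold change went from -0.18 to -0.12. Over the other times the median of these enzymes was 0.04. THRBWT replicate 2 was the highest of the 6 libraries in 67.7% of these genes, against 19.4% of all protein-coding genes. Of the 24 genes of the CAR and PXR pathway, the nuclear receptors that sense foreign compounds, 4 had an unadjusted p under 0.05 and a lower level, 0 without that library, and the median went from -0.21 to -0.03. Over the other times the median of this pathway was 0.25, with 3 genes called higher and 0 lower.

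**Figure D3:**
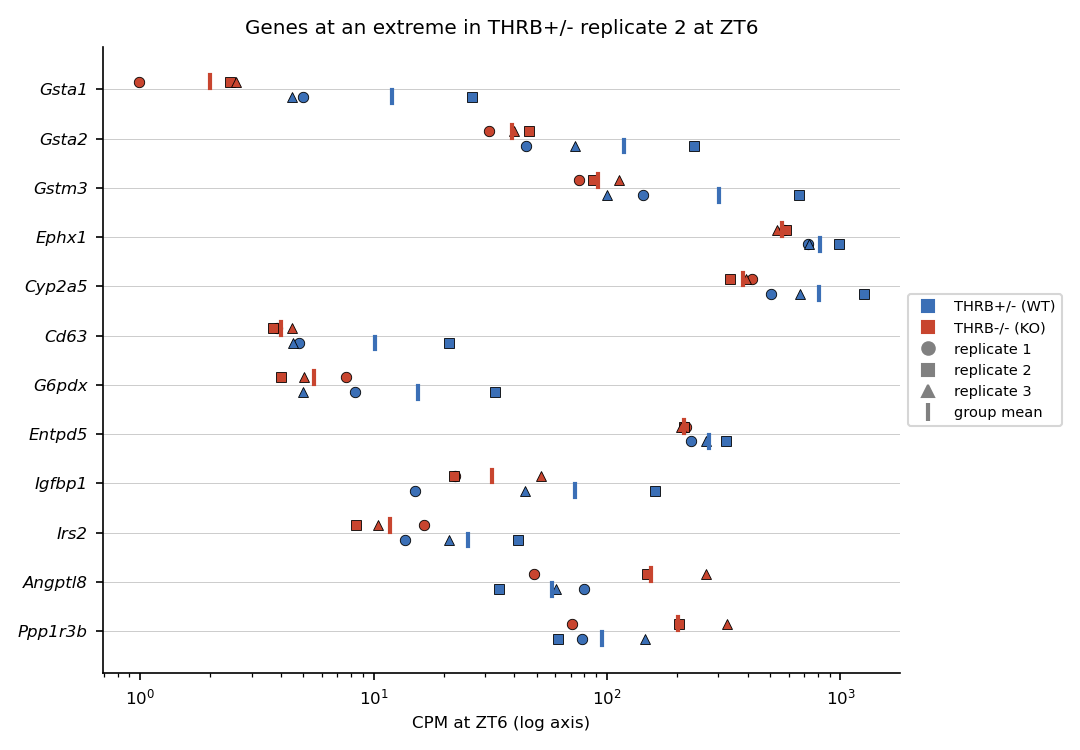
CPM on a log axis in the 6 ZT6 libraries for 12 genes at which THRBWT replicate 2 (blue square) was the highest or the lowest, with blue for THRBWT, red for THRBKO and a bar at each group mean. For *Gstm3*, *Cd63* and *G6pdx* the other 5 libraries lie together and the square stands alone.

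For 5 further genes THRBWT replicate 2 was also the highest or the lowest of the 6 libraries. *Igfbp1*, a liver-secreted binding protein that insulin represses, was at 15, 160 and 44.5 CPM in THRBWT and 22.3, 22.2 and 52.0 CPM in THRBKO. *Angptl8*, a feeding-induced inhibitor of lipoprotein lipase, was at 79.4, 34.5 and 60.5 CPM against 48.6, 149 and 264 CPM. For *Angptl8* this library was the lowest of all 36, and for *Igfbp1* the highest. *Ppp1r3b*, a glycogen-targeting phosphatase subunit, was at 78.0, 61.6 and 145 CPM in THRBWT and 71.1, 204 and 327 CPM in THRBKO. *Irs2*, the insulin receptor substrate, was at 13.7, 41.4 and 21.0 CPM against 16.4, 8.41 and 10.4 CPM, and *G6pdx*, the first enzyme of the pentose phosphate pathway, at 8.32, 33.1 and 5.00 CPM against 7.65, 4.00 and 5.02 CPM. The groups overlapped in all 5. For *Ppp1r3b* the lowest value lay close to those of THRBWT replicate 1 and THRBKO replicate 1. Of 24 glucose and glycogen genes, 0 were called, and THRBWT replicate 2 was the highest library in 33.3%, against the 19.4% of all genes. Among 10979 well-counted genes, THRBWT replicate 2 was over 2-fold above all other ZT6 libraries in 39, against 2 to 7 genes for each other library. It lay more than 2-fold below all others in 34 genes, against 7 to 19.

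*Entpd5*, a nucleotide phosphatase of the endoplasmic reticulum, and *Itih5*, of the inter-alpha-trypsin inhibitor family, were with *Gstm3*, *Gsta1* and *Gsta2* the 5 well-counted genes with the smallest p for a difference between ZT6 and the other times. *Entpd5* was at 230, 322 and 266 CPM in THRBWT and 218, 215 and 207 CPM in THRBKO, and *Itih5* was at 21.0, 39.4 and 22.9 CPM against 20.5, 15.4 and 17.8 CPM. Both had THRBWT replicate 2 as the highest of the 6 libraries, and both had the opposite sign over the other times (log2 fold changes 0.15 and 0.23). None of the 5 differences was called.

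*Cdh1*, E-cadherin of periportal hepatocytes and bile ducts, was at 72.4, 75.8 and 68.6 CPM in THRBWT and 47.4, 43.8 and 55.3 CPM in THRBKO. The log2 fold change was -0.57 (standard error 0.15), and -0.53 without THRBWT replicate 2, and it was not called. Summed cholangiocyte markers were at 40.2 to 63.6 CPM in THRBWT and 35.7 to 41.9 CPM in THRBKO, and their part in this difference was not tested. Of 11 periportal hepatocyte genes, 10 had a negative log2 fold change and 5 had all THRBKO libraries below all THRBWT libraries (45.5%, against 3.95% of all protein-coding genes). Only *Cdh1* among the 10 had an unadjusted p under 0.05 (edgeR). The median of the list was -0.21, or -0.11 without THRBWT replicate 2, and 0.11 over the other times. THRBWT replicate 2 was the highest of the 6 libraries in 63.6% of the list, against 19.4% of all protein-coding genes. The 1 gene with a positive log2 fold change was *Ctsc*, cathepsin C, at 104, 105 and 94.1 CPM in THRBWT and 172, 119 and 125 CPM in THRBKO. It was called over the other times (log2 fold change 0.68, adjusted p = 4.42e-07, edgeR). Of 15 pericentral genes 0 were called and the median was -0.02. *Snhg11*, annotated as protein-coding in the table, was at 18.6, 54.0 and 22.3 CPM in THRBWT and 12.9, 11.04 and 13.1 CPM in THRBKO, without overlap.

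Major urinary proteins, pheromone carriers made by male liver, differed widely between mice of one genotype. *Mup9* was at 387, 95.6 and 40.9 CPM in THRBWT and 19.5, 26.4 and 14.1 CPM in THRBKO, and *Mup18* was at 62.7, 2.90 and 1.74 CPM against 1.17, 1.26 and 0.852 CPM. *Mup14* was at 5.38, 9.56 and 2.37 CPM in THRBWT and 19.8, 22.3 and 863 CPM in THRBKO, and *Mup10* was at 12.9, 7.52 and 16.1 CPM against 706, 7.36 and 7.81 CPM. The highest value of each came from a single library, a different one for *Mup14* and *Mup10*. Without THRBKO replicate 1, the log2 fold change of *Mup10* went from 4.30 to -0.68. Over the other times *Mup9* was called lower in THRBKO (log2 fold change -1.50, adjusted p = 0.0254, edgeR), as 1 of 21 tested *Mup* genes. Between 89.9% and 99.8% of the 31-base words of these 4 genes occur in other genes, so that the counts of single members are uncertain. The sum of the 21 tested *Mup* genes was 37460, 18750 and 27080 CPM in THRBWT and 31940, 20680 and 21530 CPM in THRBKO, and the groups overlapped.

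Among genes with a mean of at least 50 counts, none of the 12 of smallest p with a higher level in THRBKO was called. Their adjusted p-values were 0.577 to 0.893 (edgeR). Every THRBKO library exceeded every THRBWT library in all 12, as in 4.15% of all protein-coding genes. Because the 12 were picked by p from the same comparison, this separation adds no separate evidence. *Rhob*, a small GTPase, was at 21.2, 23.0 and 30.6 CPM in THRBWT and 33.8, 31.9 and 41.9 CPM in THRBKO (log2 fold change 0.52, standard error 0.13). *Foxa3*, a pioneer factor of hepatocytes, was at 42.6, 27.1 and 40.1 CPM in THRBWT and 55.9, 72.8 and 82.1 CPM in THRBKO (0.94, standard error 0.27). *Vps37b*, of the endosomal sorting machinery, was at 6.88, 6.11 and 7.43 CPM against 8.43, 11.02 and 11.2 CPM. Over the other times the log2 fold changes of these 3 were 0.07, -0.10 and 0.04, none of them called.

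*Trhde*, the enzyme that degrades thyrotropin-releasing hormone, was at 1.40, 0.0877 and 0.737 CPM in THRBWT and 2.48, 2.20 and 2.17 CPM in THRBKO. Its lowest value stands for 3 counts, and the log2 fold change was 1.64 (standard error 0.53), or 1.11 without that library, THRBWT replicate 2. Over the other times *Trhde* was called (log2 fold change 1.30, adjusted p = 0.00332, edgeR). *Ifi44*, an interferon-induced gene, was at 2.40, 2.31 and 2.48 CPM in THRBWT and 3.74, 2.77 and 6.08 CPM in THRBKO. Of 29 interferon and antigen presentation genes, 22 had a positive log2 fold change, 0 were called and the median was 0.14, against 0.00 over the other times. *Cyp2c67*, a cytochrome P450, was at 258, 215 and 298 CPM against 343, 381 and 351 CPM. *Mterf3*, which acts in mitochondrial transcription and ribosome assembly, was at 16.2, 16.6 and 16.6 CPM against 19.6, 20.3 and 18.6 CPM. *Prmt6*, an arginine methyltransferase, was at 4.42, 4.12 and 3.48 CPM against 5.77, 5.19 and 6.34 CPM, and *Cldn14*, a tight junction claudin, was at 9.59, 7.05 and 9.01 CPM against 12.5, 14.5 and 10.1 CPM.

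*F2rl1*, protease-activated receptor 2, was among the 5 genes called with the block and was named after its values were seen. It had 11, 17 and 20 counts in THRBWT and 2, 2 and 3 counts in THRBKO, so that the separation rests on few reads. The adjusted p was 0.119 without the block and 0.0299 with it (edgeR), and the log2 fold change over the other times was -0.14 (standard error 0.22).

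Lipid genes gave no calls at ZT6. Of 36 genes of fatty acid oxidation and PPARalpha targets 0 were called, with a median of -0.02, and of 25 lipogenesis and desaturation genes 0 were called, with a median of -0.10, or -0.05 without THRBWT replicate 2. *Abcd2*, a peroxisomal transporter of very long chain acyl-CoA, was at 10.99, 37.5 and 27.0 CPM in THRBWT and 46.3, 41.8 and 62.7 CPM in THRBKO, without overlap. Its log2 fold change was 0.99 (standard error 0.46) and was not called. Without THRBWT replicate 1 it was 0.64. Over the other times it was 1.09, and there it was called (adjusted p = 0.00717, edgeR). *Acsm1*, a medium-chain acyl-CoA synthetase, was at 428, 460 and 411 CPM in THRBWT and 380, 363 and 382 CPM in THRBKO, also without overlap. Its log2 fold change was -0.21 (standard error 0.073), against -0.16 over the other times, where it too was called (adjusted p = 0.00951).

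Of 19 circadian clock genes, 0 were called at ZT6 and 0 had an unadjusted p under 0.05, and the median log2 fold change was -0.11. *Arntl* (BMAL1), the positive limb of the clock, was at 3.12, 5.21 and 2.66 CPM in THRBWT and 2.57, 6.74 and 4.41 CPM in THRBKO. *Nr1d1* (REV-ERBalpha), the repressor of *Arntl* that peaks in the light phase, was at 187, 172 and 182 CPM in THRBWT and 163, 143 and 139 CPM in THRBKO. It was the 1 clock gene without overlap, with a log2 fold change of -0.28 (standard error 0.28). This standard error comes from the fit of all 36 libraries and is not the spread of the ZT6 mice alone. Their standard deviations were 7.65 CPM in THRBWT and 12.6 CPM in THRBKO. *Per2* had a log2 fold change of 0.04 (standard error 0.26) and the output factor *Dbp* one of -0.17 (standard error 0.39), with overlapping groups.

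The other lists held 0 calls each, in the range of medians shown in the plot of list medians. Female-biased liver genes had a median log2 fold change of 0.33 over 14 genes and male-biased genes one of -0.21 over 15, against medians of 0.63 and -0.41 over the other times. Glucocorticoid-responsive genes had a median of 0.30 over 13 genes, acute phase proteins 0.15 over 25 and immediate early genes -0.17 over 16. Over the other times the medians of these lists were -0.06, -0.04 and -0.04. Without THRBWT replicate 2 the medians were 0.50 for female-biased, -0.46 for male-biased, 0.35 for glucocorticoid-responsive, 0.09 for acute phase and 0.06 for immediate early genes. Nuclear-encoded oxidative phosphorylation genes (75) and cytosolic ribosomal proteins (77) both had medians of -0.02.

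**Figure D4:**
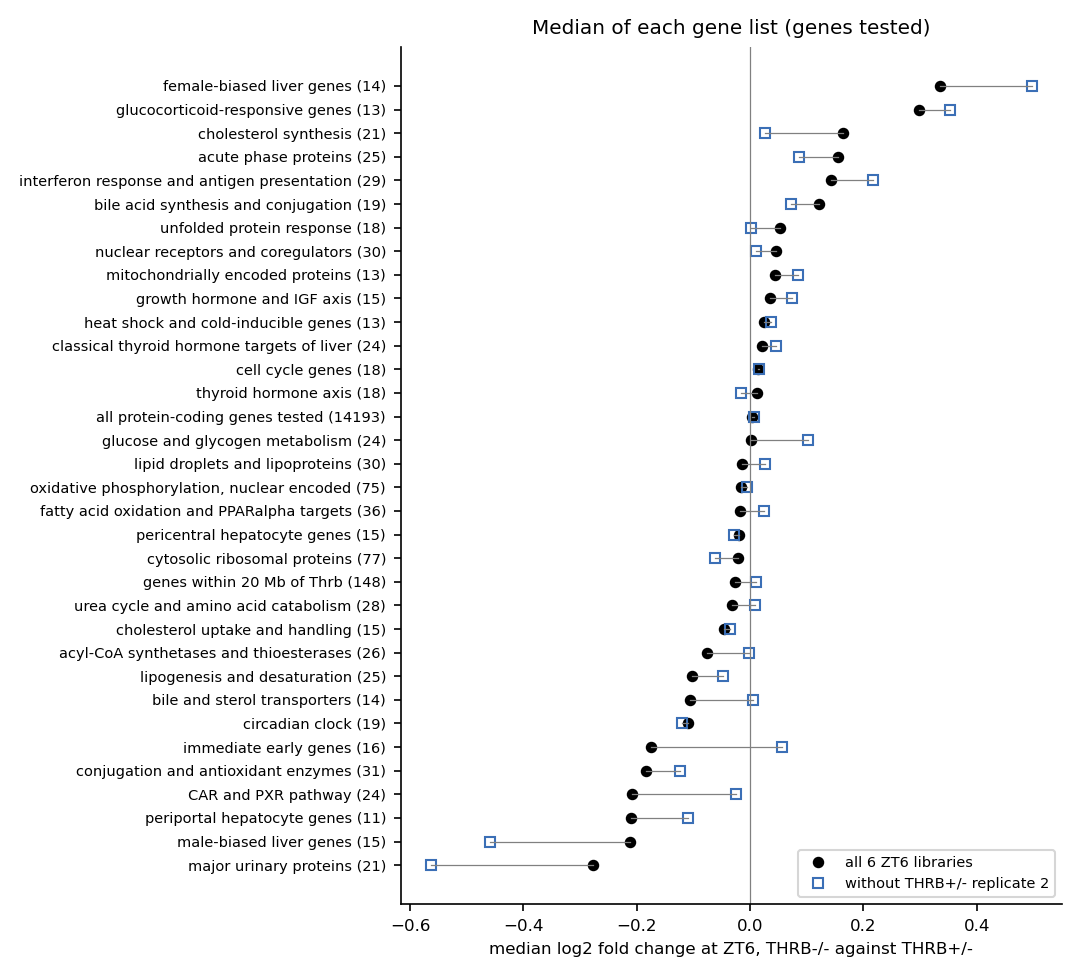
Median log2 fold change at ZT6 of each gene list, with the number of genes tested in brackets, for all 6 libraries (black) and without THRBWT replicate 2 (open blue squares). The median of all 14193 genes lies at 0.00, and the immediate early genes and the CAR and PXR pathway shift towards or past 0 without that library.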

How the data were processed

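Total liver RNA was poly-A selected and sequenced as paired-end, non-directional libraries. The authors mapped cleaned reads to GRCm38 with HISAT2 and deposited featureCounts counts per gene for 54532 genes, without normalization or filter. Versions, annotation release and the treatment of reads with several matches are not given in the sources used here. Reads from near-identical genes may therefore be split or lost, and strand cannot separate overlapping genes. The submitters' processing notes also name DESeq2.

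Genotype, time and letter came from the sample titles. Genes of any biotype with at least 100 counts over 36 libraries (17994) were normalized by TMM and fitted as 12 groups of genotype and time, which leaves 24 residual degrees of freedom for the spread, by glmQLFit and glmQLFTest of edgeR 4.0.16 in R 4.3.3 (limma 3.58.1). The contrasts were THRBKO minus THRBWT at ZT6, the mean of the other 5 times, and their difference, all two-sided. Benjamini-Hochberg adjustment covered all 17994 genes, the threshold was 0.05, and calls were then counted among protein-coding genes. The standard error was taken from the log2 fold change and the F statistic. DESeq2 1.42.0, other filters, single-library omissions and a replicate block were alternatives. The script was tested on simulated data. Each group is 3 mice, and no ZT6 libraries of a group agreed within sampling noise. At 29279652 to 37962314 counts per library, genes with few counts are imprecise.

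Same-letter libraries of the 2 genotypes at ZT6 had deviations from their group means correlated at 0.106 to 0.22 (3 of 3 pairs over 0.1). Over all times, 16 of 18 same-letter pairs exceeded 0.1. Different letters at ZT6 gave -0.232 to 0.0796. Deviations from a mean cancel within a group, so the values for different letters are not independent of those for the same letter. The letters pair the mice by the same-letter correlation, which is why blocked values are given, while no label says what the letters share. Animal numbers of replicate 1 differ in their leading digits from those of replicates 2 and 3 in both genotypes.

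Genes named were *Thrb*, the called genes with a mean of at least 50 counts filled up to 12 per direction by the smallest p, up to 4 genes of smallest p per list, the 5 of smallest p for the difference between ZT6 and the other times, and *Dio1*, *Thrsp*, *Me1*, *Klf9*, *Hr*, *Cyp7a1*, *Arntl*, *Nr1d1*, *Per2* and *Dbp*. Members, lists and rules were chosen with earlier results of these data known. Values of lists without THRBWT replicate 2 and the words of 31 bases shared between transcripts were added after the data were seen. The text gives values for only part of the genes that this rule names, and 1 item is not reported here. The other assays of the study were not analysed here.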

Additional observations from a re-analysis of the deposited data

Results flagged for a closer look

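One gene outside the protein-coding comparison was called at ZT6. *Gm10020*, a processed pseudogene on chromosome 15 (52477617 to 52478228), was at 12.3, 10.7 and 11.7 CPM in THRBWT and 22.0, 25.04 and 24.4 CPM in THRBKO, which is 1.04 higher on the log2 scale (standard error 0.085), with an adjusted p of 1.04e-08 (edgeR). Over the other 5 times it was 1.06 (standard error 0.038). Its 612 bases match the transcript of *Rpl15*, which lies beside *Thrb* on chromosome 14, at 610 bases. The sum of both genes was 155.4, 141.2 and 139.3 CPM in THRBWT and 139.9, 145.6 and 143.2 CPM in THRBKO, and here the groups overlapped. *Gm10020* made up 7.56% to 8.4% of that sum in THRBWT and 15.7% to 17.2% in THRBKO. How reads are shared between these copies was not tested.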

How the results depend on the processing

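The count of 1 protein-coding gene called at ZT6 was also 1 with protein-coding genes alone, DESeq2's size factors, filterByExpr, robust estimation and an adjusted p under 0.1, and it stayed small elsewhere. It was 2 with the 6 ZT6 libraries alone and with DESeq2's Wald test (*Gm3839* and *Cib3* in both), and 3 with all genes of at least 1 count (*Gm3839*, *Cib3* and *Mup9*). It was 5 with the replicate block over 36 libraries, which pairs mice by letter, 4 with the replicate block in the 6 ZT6 libraries (*Gm3839*, *Cib3*, *Depp1* and *Mup15*) and 3 with a term for the leading digits of the animal numbers (*Gm3839*, *Cib3* and *Depp1*). The cause of these differences was not tested. Leaving out libraries, singly or as same-numbered pairs, gave 0 to 2 calls, with 0 without replicate 1 or without replicate 2 of both genotypes (732 and 370 genes at an unadjusted p under 0.05) and 2 without THRBKO replicate 1. Without THRBWT replicate 2 the genes at an unadjusted p under 0.05 went from 610 (256 higher, 354 lower) to 369 (201 higher, 168 lower). The comparison with the other times gave 0 calls under each alternative in which it was computed, the block over 36 libraries among them. Of 1064 values of 56 named genes under the alternatives, 1023 kept their direction and side of the threshold. The 25 with the opposite sign all came from leaving out libraries, where the log2 fold change ranged from -0.0050 to 0.36 for *Thrb*, -0.87 to 0.026 for *Thrsp*, -0.21 to 0.18 for *Me1*, -0.074 to 0.19 for *Klf9*, -0.068 to 0.67 for *Arntl*, -0.22 to 0.44 for *Per2*, -0.63 to 0.15 for *Dbp*, -1.98 to 0.32 for *Igfbp1* and -0.68 to 5.13 for *Mup10*. None of these was called in any of the fits. With 3 mice per group, genes with few counts and families of near-identical genes limit what these libraries can resolve.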
